A study of Mus musculus with 6 samples.

Results

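Genes of T cells and intraepithelial lymphocytes were followed along the large intestine of untreated female C57BL/6J mice. The set was chosen by name and lists 10 genes: Cd3e, Cd3g, Cd4, Cd8a, Itgae, Gzma, Gzmb, Xcl1, Ccl5 and Lck. Of these, 9 had a probe set annotated to that gene alone, among 18193 genes measured. No probe set was named for Lck, whose level is not analysed here. Where a gene had several probe sets, the one brightest on average across the 6 arrays was read. Total RNA came from 3 libraries labelled proximal colon and 3 labelled distal colon, each hybridised to 1 array. The design text says that 3 animals gave tissue from both regions, without saying which numbers share an animal, and no age is given in the labels. Levels below are log2 expression values as the authors deposited them, so a step of 1 is a 2-fold change.

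T cells recognise antigen through a receptor whose signal is carried into the cell by the CD3 chains, with CD4 or CD8 as co-receptor and the kinase LCK as the first step of the relay. Many T cells of the gut lie within the epithelium. These intraepithelial lymphocytes commonly carry CD8 alpha chains, are held by the integrin alpha E, which binds E-cadherin on epithelial cells, and store granzymes, proteases that kill target cells. They also release chemokines, among them CCL5 and XCL1. In whole tissue RNA, fewer cells of a type and less RNA per cell cannot be told apart.

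A pair of libraries went against their labels. For Hoxb13, a posterior Hox gene, proximal 1, 2 and 3 gave 13.39, 6.53 and 6.48, and distal 1, 2 and 3 gave 13.78, 13.29 and 6.65. Slc51a, a bile acid exporter subunit, ran the other way, with 5.83 in proximal 1 and 12.05 in distal 3. Libraries are therefore named by label throughout, and each of the 9 genes is given with all 6 libraries and again without proximal 1 and distal 3. Values for other genes are from the 4-library fit unless stated, since none passed with all 6. In this 4-library comparison the p-values overstate the evidence, because the choice of libraries to leave out came from the same arrays. Array medians ran from 7.9 to 8.02, and precision is limited by having 3 arrays a group.

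As labelled, all 9 genes averaged lower in distal than in proximal libraries, a direction found in 54.3% of all genes, and none of the differences passed. In the fit of 6 libraries the differences ran from -1.84 for Gzma to -0.32 for Cd4 on the log2 scale, with a median of -1.06 against -0.02 over all genes. Each had a limma adjusted p of 0.824, and the unadjusted p ran from 0.0941 for Cd3g to 0.256 for Itgae. At an adjusted p of 0.05 limma called 0 genes, or 0% of those tested. At an unadjusted p of 0.05 it called 554 genes, 3.05% of all, and 0 of the 9. Distal and proximal values overlapped in all 9 genes, whereas 7.33% of all genes had groups that did not overlap.

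Without proximal 1 and distal 3, the same genes were lower in distal 1 and 2 by a median of -2.0 on the log2 scale, against -0.05 over all genes. Limma called 7 of the 9, all higher in proximal 2 and 3, where it called 11.5% of all genes in that direction, 7.71% in the other and 19.2% in either. All 7 differed at least 2-fold, and 3.78% of all genes tested were both called in that direction and at least 2-fold apart. Cd4 and Itgae did not pass, with limma adjusted p of 0.0599 and 0.065. The 2 distal values lay below both proximal values in all 9 genes, and in 36.6% of all genes. Leaving out 1 of these libraries therefore could not reverse the direction of any of the 9. These calls rest on few arrays: without distal 1 limma called Cd3e, Cd3g and Xcl1, without proximal 2 it called Cd3g, and without distal 2 or proximal 3 it called 0 of the 9 at an adjusted p of 0.05, with unchanged direction in each gene. The plot of both differences for each gene shows how far the estimates moved.

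**Figure D1:**
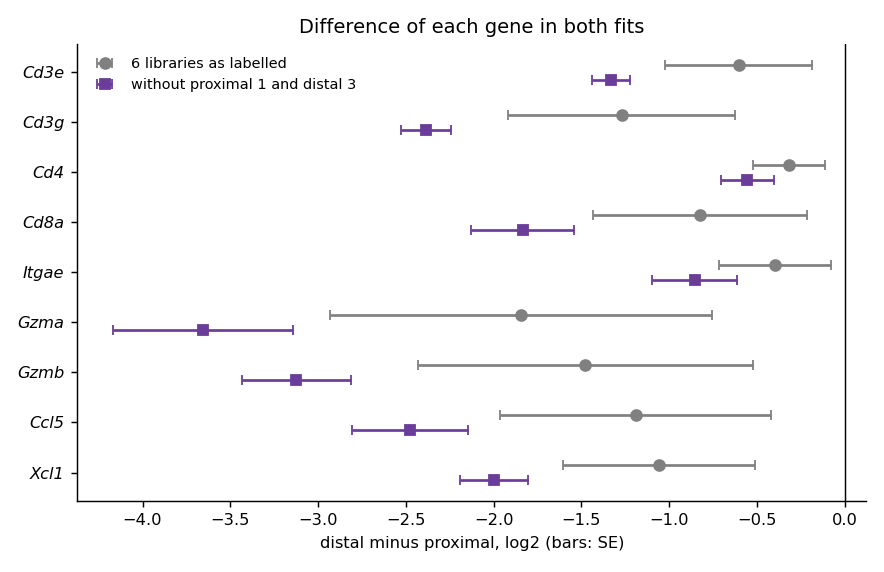
Difference between distal and proximal colon for each gene on the log2 scale (x axis), with bars for the SE of the limma fit. Circles are the fit of all 6 libraries as labelled and squares the fit without proximal 1 and distal 3; all points lie below 0, and the squares lie farther from it, from -0.56 for Cd4 to -3.66 for Gzma.

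The order of the libraries was nearly the same from gene to gene. Proximal 2, proximal 3 and distal 3 were the highest libraries in 8 of the 9 genes, all but Cd4, an order that 23.7% of all genes had. Proximal 3 was the highest of all in the 9 genes, and distal 1 the lowest in 7. The library labelled proximal 1 lay nearer the mean of distal 1 and 2 in all 9 genes (57.2% of all genes), and distal 3 nearer the mean of proximal 2 and 3 in 8 (70.9% of all genes). Both held in 8 of the 9, and in 39.2% of all genes. Proximal 1 was not at the very bottom, however: in 6 genes it lay above both distal 1 and distal 2. Over the 9 genes, values centred per gene had a median of -0.36 in proximal 1, 0.88 in proximal 2 and 1.07 in proximal 3. The corresponding medians were -1.35 in distal 1, -0.78 in distal 2 and 0.62 in distal 3.

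**Figure D2:**
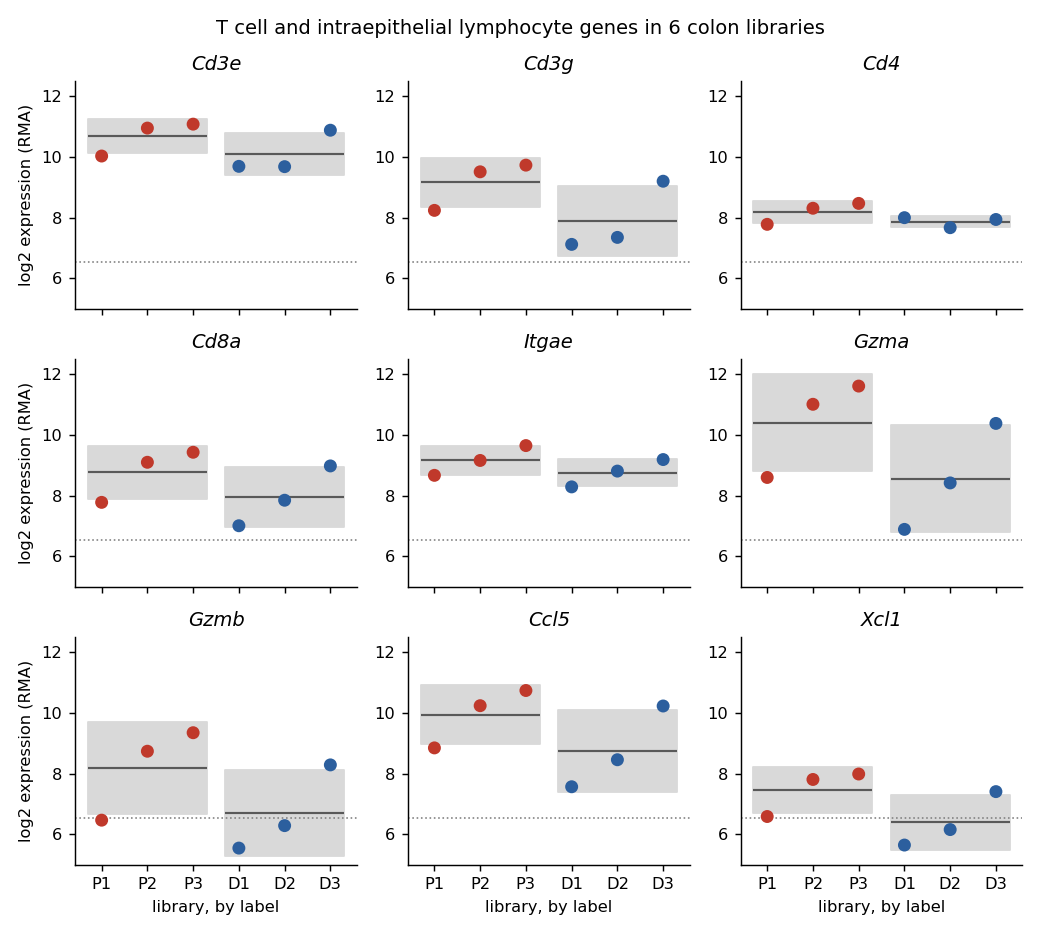
Deposited log2 expression of each gene (y axis) in the libraries labelled proximal 1 to 3 (P1 to P3) and distal 1 to 3 (D1 to D3); lines are group means as labelled, grey bands 1 SD (n = 3), and the dotted line is the lower quartile of all gene values, 6.54. P2, P3 and D3 are the highest points in every panel except that of Cd4.

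Cd3e encodes the epsilon chain of the CD3 complex. It measured 10.03, 10.95 and 11.08 in proximal 1, 2 and 3, and 9.69, 9.68 and 10.88 in distal 1, 2 and 3. The high libraries, proximal 2, proximal 3 and distal 3, lay within 0.2 of each other, and the groups as labelled overlapped. As labelled the mean was 10.69 ± 0.57 (SD, n = 3) in proximal and 10.08 ± 0.69 (SD, n = 3) in distal libraries. The 4-library difference was -1.33 (SE 0.11, limma adjusted p = 0.00245), a level 2.51-fold higher in proximal 2 and 3.

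Cd3g encodes the gamma chain of the same complex. Its values were 8.24, 9.51 and 9.73 in proximal 1, 2 and 3, and 7.12, 7.35 and 9.20 in distal 1, 2 and 3. Proximal 1 stood between the low distal pair and the others. The difference was -1.27 (SE 0.65) as labelled and -2.39 (SE 0.14, limma adjusted p = 0.000954) in 4 libraries, or 5.22-fold. Cd3d, the delta chain, went the same way, with 7.68, 8.67 and 9.05 in the proximal and 7.06, 7.53 and 8.60 in the distal libraries and a 4-library difference of -1.57 (SE 0.21, limma adjusted p = 0.00927). The zeta chain gene Cd247, read on the brightest of its 4 probe sets, gave another picture. It measured 7.40, 7.42 and 7.33 in proximal and 7.64, 8.05 and 7.57 in distal libraries. Its 4-library difference of 0.47 missed the threshold (SE 0.16, limma adjusted p = 0.108).

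The co-receptor genes differed in how closely they followed this order. Cd8a, the alpha chain found in CD8 homodimers and heterodimers, measured 7.78, 9.10 and 9.43 in proximal 1, 2 and 3, and 7.01, 7.85 and 8.98 in distal 1, 2 and 3. Distal 3 was close to the proximal pair, and proximal 1 to distal 2. The 4-library difference was -1.84 (SE 0.29, limma adjusted p = 0.0151), or 3.57-fold, and as labelled it was -0.82 (SE 0.61). Cd8b1, the beta chain of the heterodimer, was lower in distal 1 and 2 by -0.91 (SE 0.11, limma adjusted p = 0.00693), at values from 5.28 to 6.28, all under the 6.54 that marks the lower quartile of genes. Cd4, the co-receptor for MHC class II, measured 7.78, 8.31 and 8.47 in proximal and 8.0, 7.67 and 7.94 in distal libraries. Its range across the 6 libraries was 0.8, the narrowest of the 9, and distal 3 lay with the low libraries. The 4-library difference of Cd4 was -0.56 (SE 0.15), the smallest of the 9.

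Itgae, the alpha E integrin also known as CD103, measured 8.67, 9.16 and 9.65 in proximal 1, 2 and 3 and 8.29, 8.81 and 9.19 in distal 1, 2 and 3. The libraries were ordered much as for Cd8a, over a narrower range, and distal 3 was level with proximal 2 to within 0.03. The difference was -0.40 (SE 0.32) as labelled and -0.86 (SE 0.24) in 4 libraries. Its partner chain Itgb7 (-0.22, SE 0.14, limma adjusted p = 0.339) and its ligand Cdh1, E-cadherin (0.08, SE 0.11, limma adjusted p = 0.66), did not pass in the 4-library fit. Cdh1 stayed between 13.58 and 13.81 in all 6 libraries.

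The granzymes showed the widest ranges. Gzma, a serine protease of cytotoxic granules, measured 8.60, 11.01 and 11.61 in proximal 1, 2 and 3, and 6.89, 8.42 and 10.38 in distal 1, 2 and 3. Values spanned 4.72 on the log2 scale, and proximal 1 was within 0.2 of distal 2. The group means as labelled were 10.41 ± 1.59 and 8.56 ± 1.75 (SD, n = 3 each), a difference of -1.84 (SE 1.09). Without proximal 1 and distal 3 the difference was -3.66 (SE 0.51, limma adjusted p = 0.0103), or 12.6-fold. Gzmb, the granzyme that cleaves caspases, measured 6.47, 8.74 and 9.35 in proximal and 5.55, 6.29 and 8.29 in distal libraries. Its 4-library difference was -3.13 (SE 0.31, limma adjusted p = 0.00396), or 8.72-fold, and as labelled it was -1.48 (SE 0.96). For Gzmb and Xcl1 the mean of distal 1 and 2 lay under 6.54, the lower quartile over genes. No detection calls were used, so these levels may be background and the differences lower bounds.

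The chemokine genes were also lower in distal 1 and 2 than in proximal 2 and 3. Ccl5, a chemokine made by effector T cells and NK cells, measured 8.85, 10.24 and 10.74 in proximal 1, 2 and 3 and 7.57, 8.46 and 10.23 in distal 1, 2 and 3. Distal 3 equalled proximal 2 to within 0.01. The difference was -1.19 (SE 0.77) as labelled and -2.48 (SE 0.33, limma adjusted p = 0.00892) in 4 libraries, or 5.56-fold. Xcl1, or lymphotactin, which attracts dendritic cells that carry XCR1, measured 6.59, 7.81 and 7.99 in proximal and 5.65, 6.16 and 7.41 in distal libraries. All libraries but proximal 2, proximal 3 and distal 3 were near or below the lower quartile of gene values. Its differences were -1.06 (SE 0.55) and -2.0 (SE 0.19, limma adjusted p = 0.00374), or 3.99-fold in 4 libraries. Of the receptors for these chemokines, Ccr1 was lower in distal 1 and 2 (-2.20, SE 0.25, limma adjusted p = 0.00555), at 6.74, 7.80 and 8.21 in proximal and 6.11, 5.50 and 7.50 in distal libraries. Ccr3 and Xcr1 lay below 5.2 in every library and did not pass.

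The sequences before the start sites of Gzmb, Gzma and Xcl1 are shown because these effector genes passed in the 4-library fit and share a short motif. Each is the 250 bases before a RefSeq start site on the gene's own strand, build GRCm38.p6, and all of them lie on the minus strand. Capitals mark the RUNX core TGTGGT or its reverse complement ACCACA.
Gzmb: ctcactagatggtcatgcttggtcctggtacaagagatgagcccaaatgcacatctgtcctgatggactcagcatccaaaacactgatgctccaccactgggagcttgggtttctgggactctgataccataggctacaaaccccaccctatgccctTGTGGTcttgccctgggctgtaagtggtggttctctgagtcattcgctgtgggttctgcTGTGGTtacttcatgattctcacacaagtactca
Gzma: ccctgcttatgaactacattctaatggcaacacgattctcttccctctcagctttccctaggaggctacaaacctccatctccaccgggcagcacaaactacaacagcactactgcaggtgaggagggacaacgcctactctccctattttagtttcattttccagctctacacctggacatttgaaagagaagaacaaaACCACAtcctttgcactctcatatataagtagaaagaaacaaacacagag
Xcl1: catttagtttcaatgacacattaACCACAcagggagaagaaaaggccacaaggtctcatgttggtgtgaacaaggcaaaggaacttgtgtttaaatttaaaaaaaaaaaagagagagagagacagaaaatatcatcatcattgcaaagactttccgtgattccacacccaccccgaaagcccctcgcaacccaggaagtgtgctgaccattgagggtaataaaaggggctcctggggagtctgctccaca
The windows lie at chr14:56262335-56262584, chr13:113100982-113101231 and chr1:164935523-164935772. RUNX factors bind this core, and RUNX3 is known for its part in CD8 T cells. The core occurred 2 times before Gzmb, 1 time before Gzma and 1 time before Xcl1, and 0 times before Cd3e, Cd3g and Cd8a. Lck, listed but not measured, held it 1 time in the window at chr4:129573642-129573891 and 0 times in that at chr4:129558373-129558622. Of 32851 such windows in the RefSeq table, 14% held it. Other letters searched on both strands, without overlap between matches in these windows, were the ETS core GGAAGT (19.7% of all windows), the T-box site GGTGTG (16.3%) and TGACGT of cyclic AMP response elements (6.47%). The window of Xcl1 held GGAAGT 1 time and GGTGTG 2 times, and that of Cd3e held GGAAGT and TGACGT 1 time each. A match is a description of the letters, not a bound site.

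Probe sets of the same gene went the same way. Cd8a, Cd4 and Itgae had 6 further probe sets. All 6 were lower in distal 1 and 2 than in proximal 2 and 3, and in 5 of them proximal 2, proximal 3 and distal 3 were the highest libraries, the exception being that of Cd4. For Cd8a the 4-library differences of the other probe sets ran from -0.90 to -2.01, and that of the second Itgae probe set was -0.74.

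Genes of the wider T cell and cytotoxic programme moved in part in the 4-library fit, and none of them passed with all 6 libraries. The 4-library fit called 93 list genes besides the 9, and these calls rest on few arrays. Over all genes it called 11.5% higher in proximal 2 and 3 and 7.71% higher in distal 1 and 2. Of 9 other T cell markers, 4 were higher in proximal 2 and 3, 0 were lower and 5 did not pass. Of 13 other measured markers of intraepithelial lymphocytes, 7 were higher in proximal 2 and 3 than in distal 1 and 2, 0 were lower and 6 did not pass. Examples are Nkg7, a granule membrane protein (-2.14, SE 0.25, limma adjusted p = 0.00597), the receptor Cd160 (-1.38, SE 0.13, limma adjusted p = 0.00353) and the signalling receptor Cd244a (-1.16, SE 0.15, limma adjusted p = 0.00841). Ahr, the brightest marker of this list, ran the other way and did not pass (0.32, SE 0.115, limma adjusted p = 0.115). Proximal 2, proximal 3 and distal 3 were the highest libraries in 8 of the 13 and the lowest in 1, Ahr. Of 28 genes of cytotoxic granules and killing, 11 were higher in proximal 2 and 3 and 0 were lower. The lists share genes, so their counts are not independent. Cd160 was in this list too, Eomes also among the NK markers, and Cd3d in the T cell and receptor complex lists. Among them were the granzyme Gzmk (-2.59, SE 0.28), the chemokine Ccl3 (-1.51, SE 0.17) and Eomes, a T-box factor of cytotoxic lymphocytes (-1.42, SE 0.15). Prf1, which encodes the pore protein perforin, did not follow the granzymes on the brighter of its 2 probe sets. It measured 10, 10.35 and 10.33 in proximal and 10.18, 10.49 and 10.43 in distal libraries (4-library difference -0.01, SE 0.14, limma adjusted p = 0.985).

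Of 32 genes of the T cell receptor complex and its signalling, 9 were higher in proximal 2 and 3 (11.5% of all genes). In distal 1 and 2, 1 was higher (7.71% of all genes), and 22 missed the threshold. Examples of the 9 are Themis (-1.39, SE 0.15), the phosphatase Ptpn22 (-1.16, SE 0.18) and Cd5 (-0.69, SE 0.12), with limma adjusted p of 0.00479, 0.0125 and 0.0175. The kinase Zap70 (-0.39, SE 0.30), the surface protein Thy1 (-0.35, SE 0.16) and the leukocyte phosphatase Ptprc (-0.20, SE 0.20) did not pass. Cd2, an adhesion receptor chosen after its values were seen, was at 8.41, 8.20 and 8.53 in proximal and 8.59, 8.39 and 8.48 in distal libraries (4-library difference 0.13, limma adjusted p = 0.627). Of 20 genes of helper and regulatory T cells, 3 were higher in proximal 2 and 3 and 1 in distal 1 and 2, a share of 20% called against 19.2% of all genes. These were the chemokine receptor Cxcr6 (-1.01), the transcription factor Ikzf2 (-0.95) and the cytokine receptor Il7r (-0.73) against the chemokine receptor Ccr6 (1.38). Foxp3, the factor of regulatory T cells, also chosen after its values were seen, did not pass (-0.37, limma adjusted p = 0.0751).

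**Figure D3:**
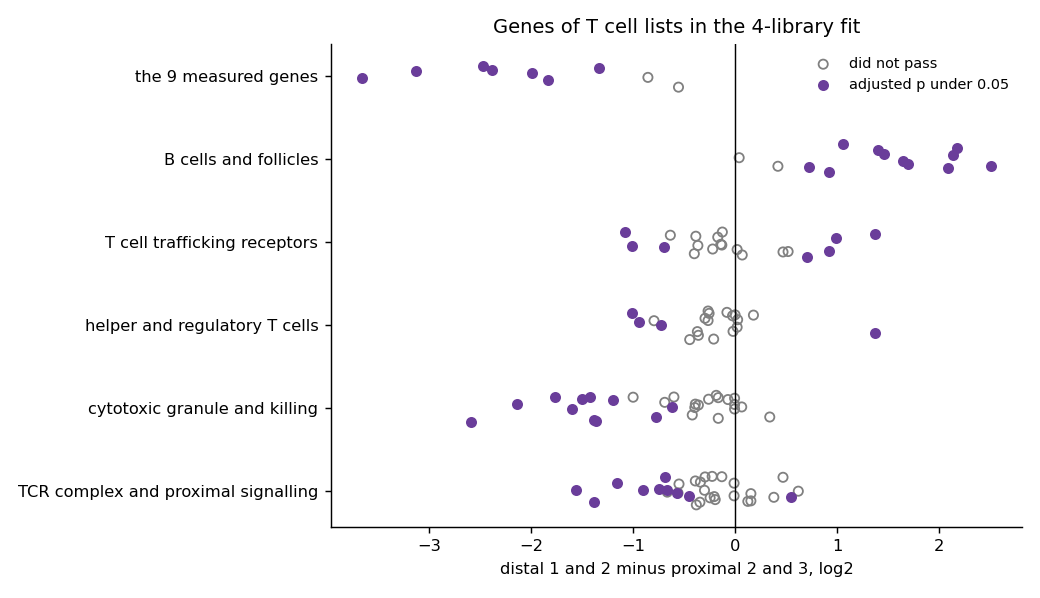
Difference of distal 1 and 2 minus proximal 2 and 3 on the log2 scale (x axis) for each gene of 5 lists and for the 9 measured genes (rows); filled points passed limma's adjusted p of 0.05 and open points did not, and vertical scatter within a row carries no value. The 9 measured genes lie to the left of 0 and the B cell genes to the right, while the T cell lists spread around 0 with a tail to the left.

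Signals that recruit or retain these lymphocytes went both ways. Of 24 measured genes of epithelial and stromal support, 8 were higher in proximal 2 and 3 and 5 in distal 1 and 2. Over all genes these shares were 11.5% and 7.71%. Ccl25, the ligand of the gut homing receptor CCR9, measured 9.38, 11.72 and 11.61 in proximal and 9.37, 9.52 and 10.99 in distal libraries. Its 4-library difference was -2.22 (SE 0.12, limma adjusted p = 0.000665). The receptor gene Ccr9, chosen after its values were seen, lay between 6.11 and 6.63 and did not pass (-0.125, limma adjusted p = 0.608). H2-T3, a ligand of CD8 alpha homodimers, differed by -1.51 (SE 0.26, limma adjusted p = 0.0184), at values from 4.88 to 6.90. Cxcl11, a ligand of CXCR3, was higher in proximal 2 and 3 (-2.04, SE 0.20, limma adjusted p = 0.00383), and Cd1d1, which presents lipids to NKT cells, was higher in distal 1 and 2 (1.35, SE 0.15, limma adjusted p = 0.00548). Btnl2, a butyrophilin-like gene, and Cxcr3 were chosen after their values were seen, and differed by -3.15 and -1.07 with limma adjusted p of 0.00938 and 0.0299. Of 20 trafficking receptors 3 were higher in proximal 2 and 3 and 4 in distal 1 and 2, the latter including Ccr7 (0.92) and Itga1 (0.99).

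Markers of other cells were counted in the same way, against 11.5% of all genes called higher in proximal 2 and 3 and 7.71% called higher in distal 1 and 2. B cell and follicle markers ran against the T cell genes: of 13 measured, 11 were higher in distal 1 and 2 and 0 in proximal 2 and 3, and in 12 proximal 2, proximal 3 and distal 3 were the lowest libraries (16.9% of all genes). Ms4a1, the gene of CD20, measured 8.58, 6.78 and 6.86 in proximal and 9.09, 8.90 and 5.69 in distal libraries. Summed over the list, the log2 level ran from 11.26 to 12.23 in proximal and from 10.77 to 12.48 in distal libraries. NK and innate lymphocyte markers followed the T cell genes in part, with 4 of 8 higher in proximal 2 and 3, but the NK receptor Ncr1, chosen after its values were seen, lay between 3.66 and 4.4 in all libraries and did not pass. Of 13 genes shared by all leukocytes 3 were higher in proximal 2 and 3, and their summed log2 level stayed between 13.99 and 14.28 in all libraries. Of 14 macrophage and dendritic cell markers 4 were higher in proximal 2 and 3, and 10 did not pass. Of 12 epithelial markers 3 were higher in proximal 2 and 3, namely the intestinal transcription factor Cdx2 (-0.88, limma adjusted p = 0.0212), the keratin Krt20 (-0.49, limma adjusted p = 0.0307) and the carbonic anhydrase Car1 (-0.55, limma adjusted p = 0.032). In 6 of the 12, proximal 2, proximal 3 and distal 3 were the highest libraries (23.7% of all genes). The summed log2 level of the list was 17.86, 17.87 and 17.86 in these. It was 17.62 in proximal 1, 17.65 in distal 1 and 17.66 in distal 2. Of 9 mast cell markers 2 were higher in proximal 2 and 3 and 1 was lower, while 5 had proximal 2, proximal 3 and distal 3 as the highest libraries. The mast cell protease Mcpt2 measured 6.11, 7.06 and 8.05 in proximal and 4.65, 5.94 and 8.38 in distal libraries (4-library difference -2.26, SE 0.51, limma adjusted p = 0.0365). Another mast cell protease gene, Cma1, was the 1 that was lower in proximal 2 and 3. It measured 8.24, 6.11 and 5.93 in proximal and 7.92, 7.36 and 5.78 in distal libraries. Its 4-library difference was 1.62 (SE 0.21, limma adjusted p = 0.00795). The part of these cells in the differences above was not tested.

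Further signals differed between libraries. Interferon response genes were higher in proximal 2 and 3 in 16 of 26 (11.5% of all genes). Their median deviation was -0.39 in distal 3, against 0.46 and 0.87 in proximal 2 and 3. Summed over the list, the log2 level was 15.32 in distal 3, against 16.2 and 16.55 in proximal 2 and 3. It was 15.29 in proximal 1, 15.17 in distal 1 and 15.3 in distal 2. In 6 of the 26, proximal 2, proximal 3 and distal 3 were the highest libraries, a share near the 23.7% of all genes. This order held in 8 of the 9 T cell genes. The part of this list in the T cell gene differences was not tested. Pancreatic acinar genes were highest in proximal 1 and distal 1, with a summed log2 level of 15.51 and 15.36 there. Elsewhere that level was lowest in proximal 2 (10.43) and proximal 3 (10.34), with 11.78 for distal 2 and 12.51 for distal 3. Cela2a, an elastase, measured 12.21, 6.49 and 6.18 in proximal and 12.49, 6.02 and 6.62 in distal libraries. Clps, the lipase cofactor colipase, was also high in distal 2 and 3, with 13.62, 9.69 and 9.67 in proximal and 13.10, 11.59 and 12.37 in distal libraries, and was the 1 of 8 that passed (2.67, SE 0.47, limma adjusted p = 0.0198). The part of these genes in the T cell gene differences was not tested.

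**Figure D4:**
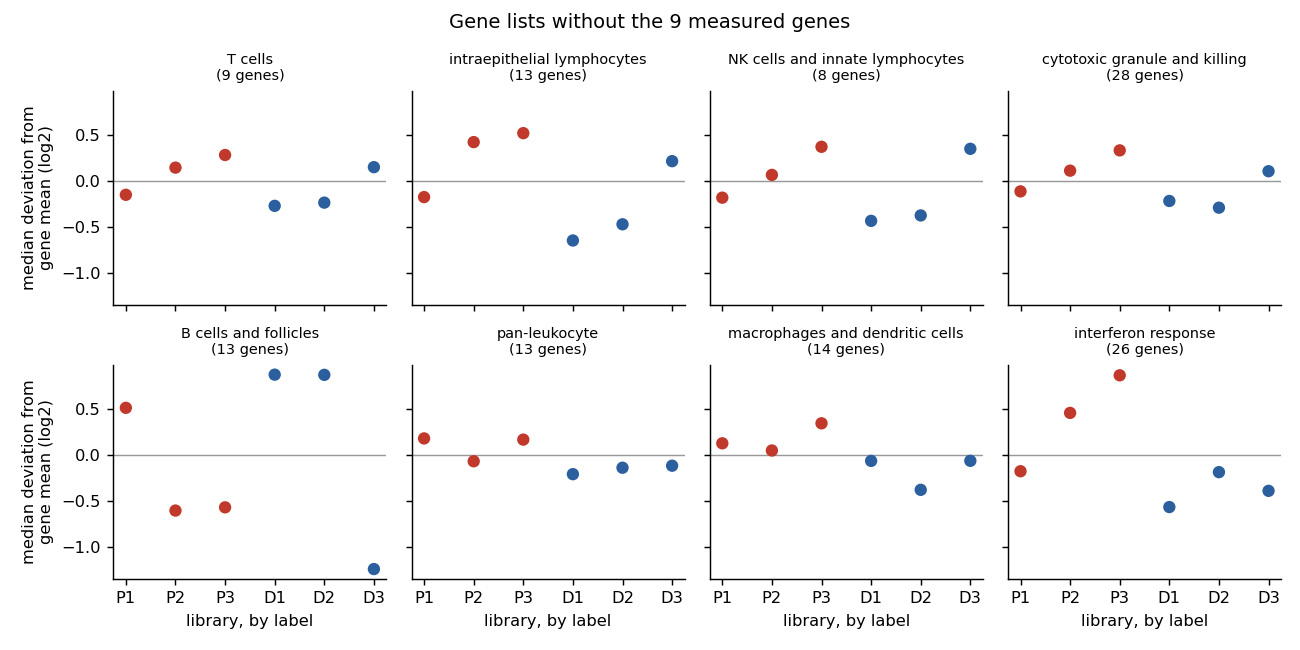
Median over each list of a gene's deviation from its own mean over the 6 libraries, on the log2 scale (y axis), in the libraries labelled proximal 1 to 3 (P1 to P3) and distal 1 to 3 (D1 to D3); the 9 measured genes are left out. Intraepithelial lymphocyte markers are highest in P2, P3 and D3 and B cell markers lowest there, while interferon response genes are highest in P2 and P3 alone.

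Genes with the most similar values were found by the root mean square difference from each gene after centring both on their means over the 6 libraries, which come from 3 animals. Nearest to Cd8a was Ctsw, a protease of cytotoxic lymphocytes, at 0.06, followed by Cdc42ep2 (0.1) and the NK receptor gene Klrd1 (0.11). Ctsw was also close to Xcl1 (0.15), behind Fgfrl1 (0.11) and Cmtm8 (0.14). Nearest to Ccl5 were Cd7 (0.14), Cd96 (0.17) and Clec2e (0.18). For Cd3e they were Aamdc (0.05), Ipp (0.06) and Cd160 (0.06), and for Cd3g the T cell receptor gamma segment Trgv1 (0.12), Ncoa7 (0.16) and Mgat4c (0.17). The nearest to Gzma were Tmigd1 (0.32), Cpn1 (0.32) and Ugt2b36 (0.34), and to Gzmb ccdc198 (0.19), Hsd17b13 (0.2) and Tcf24 (0.25). For Itgae they were Ggt5 (0.08), Ankrd63 (0.1) and Snhg14 (0.1), and for Cd4 C2cd4b (0.04), Cgrrf1 (0.06) and Rnf19b (0.06). The distances are not scaled to a gene's range, 4.72 for Gzma and 0.8 for Cd4, and cannot be compared between the 9 genes.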

How the data were processed

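Each of the 6 libraries was hybridised to 1 single-colour expression array. Per the labels' protocols, RNA was extracted with Trizol, amplified with NuGEN Ovation kits and labelled with biotin, and per the submitters' processing notes the authors computed the deposited log2 values with RMA in Partek 6.5; the background setting is not given in the sources used here. RMA commonly aligns the arrays' distributions, which would hide a change common to most genes. The scale is taken from the values, which run from 2.91 to 15.16.

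Of 45101 probe sets, 64 controls, 932 with several gene symbols and 9160 with none were left out. Symbols of 34741 were updated by gene identifier with a RefSeq table of GRCm38.p6, used for names and for promoter windows. Differences were fitted in R 4.3.3 by limma 3.58.1 (linear model with moderated variance, two-sided, Benjamini-Hochberg over 18193 genes, threshold 0.05), without a block, and the calculation was tested on simulated data. Differences are distal minus proximal. The p-values rest on the spread among the libraries alone.

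The genes and lists were chosen with earlier results of these data known. Named beside the 9 genes were the 4 or fewer list genes lowest in adjusted p in the 4-library fit, direct partners, the brightest genes of cell type lists and the 3 nearest profiles; genes outside this rule are marked in the text. Alternatives were a replicate block, a filter on low values, the mean of probe sets, each probe set on its own, median centring, quantile normalization, a robust trended variance, a plain test, array weights, a threshold of 0.01 and leaving out libraries.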

Additional observations from a re-analysis of the deposited data

How the results depend on the processing

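None of the 9 genes changed direction under any alternative that was run, with all 6 libraries or with 4. The replicate block, plain test, robust trended variance, 0.01 threshold and single probe sets left each difference unchanged, so the direction was fixed there. In 4 libraries both distal values lay below both proximal values in all 9 genes, so leaving out 1 more could not reverse any. With all 6 libraries, 0 of the 9 genes, 0 genes in all and 0 genes of the other lists passed, and this held under every alternative but array weights and leaving out proximal 1 and distal 3. Weighting the arrays by their fit (array weights) called 8 of the 9 genes, 5579 in all and 115 list genes. The weights were 0.322, 6.72 and 1.57 for proximal 1, 2 and 3, and 2.505, 0.403 and 0.291 for distal 1, 2 and 3. They came from the same arrays, so the p-values of this fit may also overstate the evidence. Leaving out proximal 1 and distal 3 called 7, 3494 and 93, with a median difference of -2.0 over the 9 genes. With the replicate number as a block 0 of the 9 passed and the median difference was -1.06; same-numbered libraries deviated together at correlations of 0.677, -0.448 and 0.678 across genes, so the numbers are not shown to pair the libraries. In 4 libraries, leaving out 1 more gave 0 to 3 of the 9 genes, 146 to 1633 genes in all and 6 to 26 list genes, the remaining single library being taken to vary as the other group does. With the 4 libraries, an adjusted p threshold of 0.01 left 5 of the 9 genes, 1112 genes in all and 36 list genes. Cd8a and Gzma no longer passed (limma adjusted p = 0.0151 and 0.0103). The filter on low values left 3 of the 9 genes to test, all of which passed, with a median of -2.48, and called 44 list genes, fewer genes being tested. Itgae passed with the mean of its probe sets (limma adjusted p = 0.0467) and with a trended and robust variance (0.0341), within a range of 0.0341 to 0.399 over its alternatives.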
